A study of Mus musculus with 9 samples.

Results

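Integrins are paired receptors of an alpha and a beta chain that tie cells to matrix, plasma proteins and other cells, and this account follows the transcripts of 4 chains known from platelets in monocytes kept with a buffer or with platelets. The chains were chosen by gene symbol: Itga2b, Itgb3, Itga2 and Itga6, which are 4 of the 55367 symbols counted in each library, and all 4 had enough counts to be among the 13707 genes tested. Monocytes from adult mice, blood cells that can become macrophages, were incubated for 4 h in a control buffer, with adult platelets or with platelets labelled P7 (commonly short for postnatal day 7), and were washed before their mRNA was sequenced. Each of the 3 groups holds 3 libraries. The labels give no strain, sex or genotype, and they do not say whether replicates of a group were separate cultures or animals. The p-values thus cover the spread among these libraries alone, and that spread may be technical.

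Itga2b encodes integrin alpha IIb and Itgb3 encodes integrin beta 3. Together they form the fibrinogen receptor through which activated platelets are bridged to each other, and the alpha IIb chain is also a marker of megakaryocytes, the bone marrow cells that shed platelets. Beta 3 has a second partner, the alpha V chain, on macrophages and other cells. Itga2 encodes the alpha 2 chain of the collagen receptor and Itga6 the alpha 6 chain of laminin receptors. On platelets both are paired with beta 1, the product of Itgb1, and outside platelets alpha 2 is familiar as the NK cell and basophil antigen CD49b. Platelets have no nucleus but carry megakaryocyte mRNA, so transcripts in the mixed libraries can come from monocytes, from platelets that stayed attached or were taken up, or from other cells.

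On GENCODE M21 (GRCm38), Itga2b spans bases 102453297 to 102470122 of chromosome 11 on the minus strand, and Itgb3 lies on the same chromosome at 104608000 to 104670476 on the plus strand. Itga2 lies on chromosome 13 at 114833081 to 114932100 (minus strand) and Itga6 on chromosome 2 at 71745616 to 71858416 (plus strand). RefSeq promoter windows (GRCm38.p6, 250 bases before to 50 after the annotated start) were at hand for Itga2b and Itga2, 2 alpha chains whose P7-to-adult fold changes had opposite signs. They are shown for their matches to GGAA, the core letters bound by ETS factors such as FLI1 of megakaryocytes. The Itga2b window is set on a start at base 102469883, which is also where the GENCODE protein-coding transcript starts. A GENCODE processed transcript of Itga2b starts 239 bases further upstream, so most of the window lies inside the gene span given above. Both are written 5′ to 3′ along the gene, with GGAA or its complement TTCC in capitals.
Itga2b, chr11:102469834-102470133, minus strand: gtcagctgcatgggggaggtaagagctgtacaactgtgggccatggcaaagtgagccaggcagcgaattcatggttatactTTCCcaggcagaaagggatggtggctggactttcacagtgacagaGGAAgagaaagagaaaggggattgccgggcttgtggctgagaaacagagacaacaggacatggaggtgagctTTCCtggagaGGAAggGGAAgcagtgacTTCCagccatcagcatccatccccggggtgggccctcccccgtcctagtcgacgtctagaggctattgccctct
Itga2, chr13:114932051-114932350, minus strand: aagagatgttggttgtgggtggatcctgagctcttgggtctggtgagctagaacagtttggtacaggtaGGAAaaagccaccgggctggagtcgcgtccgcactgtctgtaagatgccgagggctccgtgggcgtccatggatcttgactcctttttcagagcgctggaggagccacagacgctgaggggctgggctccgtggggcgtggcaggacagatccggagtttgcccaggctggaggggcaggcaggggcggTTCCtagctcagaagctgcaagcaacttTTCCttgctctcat
The Itga2b window held 6 matches and the Itga2 window 3. A match is a description of the letters only, since GGAA or TTCC occurred in 96.0% of all 32851 windows of this length (median 3 matches), and 15.7% of windows held at least 6. The letters GATA, core of the motif named for the GATA factors, were in neither window on either strand and occurred in 57.9% of all windows.

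Some libraries stood apart within their groups. B and plasma cell transcripts, mostly the antibody light chain Igkc, summed to 608 to 1108 CPM (counts scaled to a common library size) in replicate 1 of each group and adult platelet replicate 3, against 249 to 345 CPM in the other 5 libraries. The difference between P7 and adult platelets is therefore also given with log2 Igkc CPM as a covariate for Itga2b and Itga6. The covariate moved other fold changes too, such as that of Itga2b with adult platelets over control (log2 4.35 to 4.21). Adult platelet replicate 2 had the lowest sum of 16 other platelet transcripts among the platelet libraries (964 CPM, against 1530 to 1960). Red cell transcripts rose with both kinds of platelets and far more with P7, to 48901 to 61125 CPM, from 475 to 1739 with adult platelets and 10.5 to 13.5 in controls. Monocyte transcripts, the labelled cell type, were present throughout at 23517 to 33314 CPM, with none of 10 markers at 0 in any group.

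All 4 integrin transcripts were higher with either kind of platelets than with buffer, and Itga2b by far the most: 20.4-fold with adult and 53.0-fold with P7 platelets. Between P7 and adult platelets the 4 parted. Itga2b (2.59-fold) and Itgb3 (2.18-fold) were higher with P7 platelets, whereas Itga2 and Itga6 had lower means with P7 than with adult platelets, by amounts that did not pass the test. Levels below are normalised CPM. Fold changes and SE come from edgeR's quasi-likelihood test, and called means an adjusted p (Benjamini-Hochberg, over all genes tested) under 0.05. In bulk RNA a change in the number of cells or platelets of a kind cannot be told apart from a change in the RNA each of them holds.

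Itga2b stood at 11.9, 6.54 and 5.45 CPM in control replicates 1 to 3, from 474, 249 and 215 counts. With adult platelets it stood at 192, 100.0 and 196 CPM, and with P7 platelets at 429, 413 and 422 CPM. The 3 groups did not overlap. Control replicate 1 was the highest of the controls and adult platelet replicate 2 the lowest of its group, while the P7 libraries lay close together. Means were 7.94 ± 3.43, 163 ± 54.2 and 422 ± 8.17 CPM (SD, n = 3 each). The log2 fold change over control was 4.35 ± 0.34 (SE) with adult platelets (edgeR adjusted p = 3.97e-05) and 5.73 ± 0.35 with P7 platelets (adjusted p = 2.2e-06). P7 exceeded adult platelets by 1.37 ± 0.29 (adjusted p = 0.0046), and by 1.58 with the Igkc covariate.

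Itgb3, the partner chain, stood at 10.9, 17.1 and 16.1 CPM in the controls, at 43.5, 26.9 and 44.2 with adult platelets and at 86.1, 80.1 and 83.0 with P7 platelets. Here too no groups overlapped and adult platelet replicate 2 was the lowest of its group, but control replicate 1, highest for Itga2b, was the lowest control. Group means were 14.7 ± 3.34, 38.2 ± 9.82 and 83.1 ± 2.99 CPM. The rise over control was 2.6-fold with adult platelets (log2 1.38 ± 0.21, adjusted p = 0.00165) and 5.67-fold with P7 platelets (log2 2.50 ± 0.21, adjusted p = 1.19e-05). P7 and adult platelets differed by log2 1.12 ± 0.20 (adjusted p = 0.00204).

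Itga6 was measured at 17.5, 15.6 and 14.1 CPM in the controls. It stood at 57.6, 42.8 and 80.4 CPM with adult platelets and at 54.8, 42.8 and 43.7 with P7 platelets. Every library with platelets was above every control, and the libraries of both kinds of platelets overlapped, with adult platelet replicate 3 the highest of all. The rise was 3.83-fold with adult platelets (log2 1.94 ± 0.21, adjusted p = 0.000313) and 3.00-fold with P7 platelets (log2 1.58 ± 0.21, adjusted p = 0.000172). P7 minus adult was -0.35 ± 0.20 (adjusted p = 0.197), and -0.27 with the Igkc covariate (adjusted p = 0.209). This difference rests on single libraries: without adult platelet replicate 2 it was -0.54 and called (adjusted p = 0.0240), and in the other 8 fits that each left out 1 library it was not called (adjusted p up to 0.698).

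Itga2 was the scarcest of the 4, with 22 to 36 counts per control library, 91 to 131 with adult platelets and 54 to 84 with P7 platelets. These were 0.900, 0.814 and 0.557 CPM in control replicates 1 to 3, then 3.02, 2.6 and 3.88 CPM with adult platelets and 2.41, 2.04 and 2.7 CPM with P7 platelets. Controls lay below all platelet libraries, and the highest P7 library lay above the lowest adult platelet library. Itga2 rose 4.17-fold with adult platelets (log2 2.06 ± 0.23, adjusted p = 0.000392) and 3.14-fold with P7 platelets (log2 1.65 ± 0.24, adjusted p = 0.000271). P7 minus adult was -0.41 ± 0.22 (adjusted p = 0.172).

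**Figure D1:**
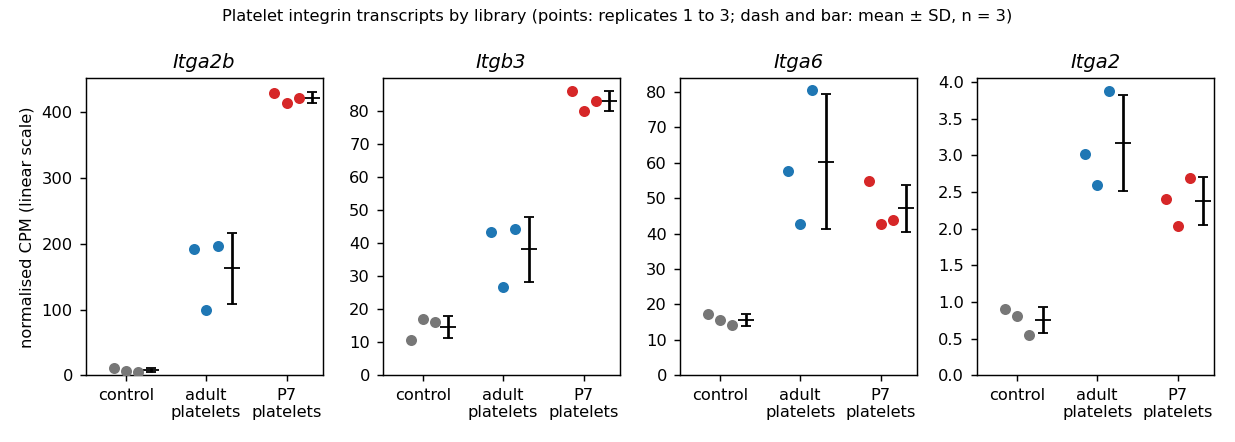
Normalised CPM (y axis, linear, a separate scale for each gene) of Itga2b, Itgb3, Itga6 and Itga2 in each of 9 libraries by group; points are replicates 1 to 3 from left to right, and the dash with bar is the mean ± SD (n = 3). Itga2b and Itgb3 step up from control to adult to P7 platelets, while Itga6 and Itga2 overlap between the platelet groups.

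All 4 chains were thus called higher in both comparisons with control, against backgrounds of 14.3% of all 13707 genes called higher and 12.0% called lower with adult platelets (26.4% in all), and of 29.9% higher and 29.3% lower (59.2% in all) with P7 platelets. Between P7 and adult platelets 2 of 4 were called, both higher, against 19.7% of all genes higher and 19.8% lower (39.6% in all). For all 4 members the CPM of control libraries did not overlap with those of either platelet group. That was so for 42.7% of all genes with adult and 69.1% with P7 platelets, and P7 and adult libraries did not overlap for 49.0% of genes and for 2 of the 4 members. The number of genes called with adult platelets was 3617 in all, but 2031 if control replicate 2 was left out and 2207 if control replicate 3 was. The 4 members were called in these fits as well. Both comparisons with control use the same 3 control libraries.

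Levels of different genes were compared per kilobase of annotated exon, taking all exons of a gene together (5454 bases for Itga2b, 5901 for Itgb3, 9025 for Itga6 and 7133 for Itga2). In controls the order was Itgb3 (2.49 ± 0.57 CPM per kb), Itga6 (1.74 ± 0.18), Itga2b (1.46 ± 0.63) and Itga2 (0.106 ± 0.025). The first 3 overlapped between libraries, and Itga2 was below them all. With adult platelets Itga2b led at 29.8 ± 9.94 CPM per kb, Itga6 (6.68 ± 2.10) and Itgb3 (6.47 ± 1.66) overlapped, and Itga2 followed at 0.444 ± 0.092. With P7 platelets the order was Itga2b (77.3 ± 1.5), Itgb3 (14.1 ± 0.51), Itga6 (5.22 ± 0.74) and Itga2 (0.334 ± 0.046), with no overlap. By mean level, the place of Itga2b went from the third in buffer-kept monocytes to the first in both platelet groups.

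The balance of counts within the fibrinogen receptor pair moved with the group. Counts of Itga2b per count of Itgb3 were 1.09, 0.382 and 0.339 in control replicates 1 to 3. They were 4.41, 3.72 and 4.43 with adult platelets and 4.99, 5.16 and 5.08 with P7 platelets. Thus Itgb3 had more counts than Itga2b in 2 of 3 controls, and Itga2b had several times more in every library with platelets. With P7 platelets the ratio exceeded that with adult platelets 1.22-fold, and the libraries did not overlap (p = 0.1 by an exact permutation test, two-sided, which cannot go lower with 3 libraries on each side; p = 0.1 adjusted over 6 ratios). Itga6 per Itga2b went the other way, from 0.300 to 0.428 with adult platelets to 0.104 to 0.128 with P7 platelets, a 3.37-fold lower ratio (exact permutation p = 0.1, adjusted p = 0.1). These ratios take all counts of a library, whatever cells they came from. In controls Itgb3 stood at 14.7 CPM, against 38.2 with adult and 83.1 with P7 platelets. Itga2b stood at 7.94 CPM, against 163 and 422. The control level was thus a larger part of the adult than of the P7 value, most so for Itgb3. Whether the Itga2b to Itgb3 ratio would still differ with control levels taken off was not tested.

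**Figure D2:**
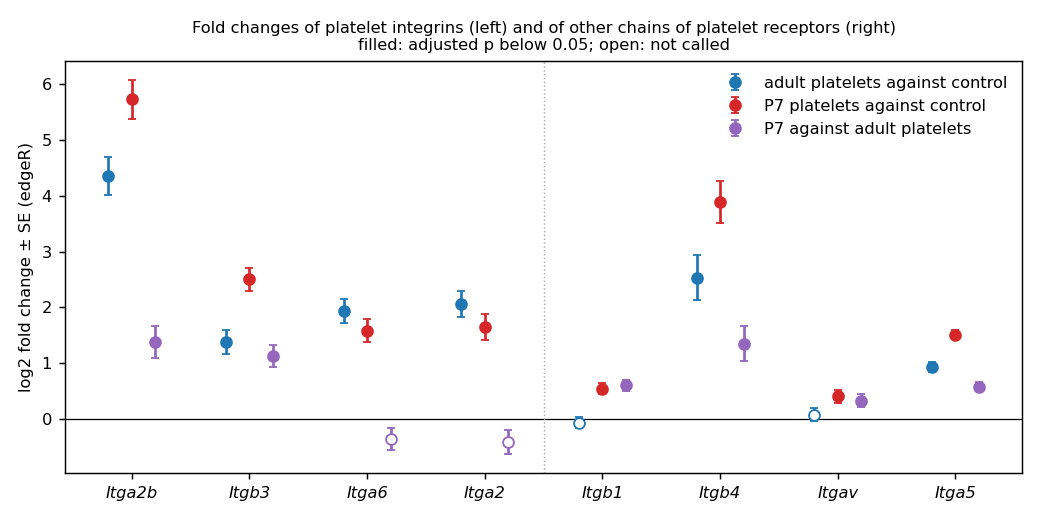
log2 fold change ± SE (y axis, edgeR) of the 4 integrins, left of the dotted line, and of 4 other integrin chains, right, in the 3 comparisons; filled points have an adjusted p below 0.05 and open points do not. Itga2b has the largest rises, and the open points of Itga6 and Itga2 below 0 are their differences between P7 and adult platelets.

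Controls held Itga2b, Itgb3, Itga6 and some Itga2 while other platelet transcripts were nearly missing. A list of 16 further platelet and megakaryocyte transcripts, among them Pf4, Ppbp, Gp9, Gp1ba, Tubb1 and Treml1, summed to 88, 94 and 68 counts in control replicates 1 to 3, fewer than Itga2b, Itgb3 or Itga6 alone, and Gp1bb, Gp6 and Mpig6b had no control counts. The list summed to 1.72 to 2.47 CPM in controls, to 964 to 1684 with adult platelets and to 1647 to 1960 with P7 platelets. Per 100 counts of the list, Itga2b gave 265 to 539 counts in controls but 10.4 to 12.5 with adult platelets and 21.9 to 25.1 with P7 platelets. For Itgb3 these figures were 493 to 932, 2.63 to 2.84 and 4.39 to 4.88, and for Itga6 631 to 821, 3.76 to 4.78 and 2.57 to 2.80. In every platelet library these chains therefore stood to other platelet transcripts in a quite different proportion than in controls.

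Scaled in this way to the other platelet transcripts, which needs no scaling between libraries, the 4 integrins separated into pairs. Itga2b was 2.08 times and Itgb3 1.71 times as abundant with P7 as with adult platelets. Itga6 was 1.62 times and Itga2 1.72 times less abundant with P7 platelets, Itga2 giving 0.197 to 0.270 counts per 100 with adult and 0.123 to 0.159 with P7 platelets. Adult and P7 libraries did not overlap for any of the 4 (two-sided exact permutation p = 0.1 each, again the lowest value possible; adjusted over 6 ratios p = 0.1). The list itself is not even in this comparison: 12 of its 16 transcripts were called higher with P7 platelets, 3 were not called and Ppbp, a chemokine precursor of platelet granules, was lower by 1.96 on the log2 scale. Without Ppbp and Pf4 in the list the log2 differences were 0.81 for Itga2b, 0.53 for Itgb3, -0.94 for Itga6 and -1.03 for Itga2.

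**Figure D3:**
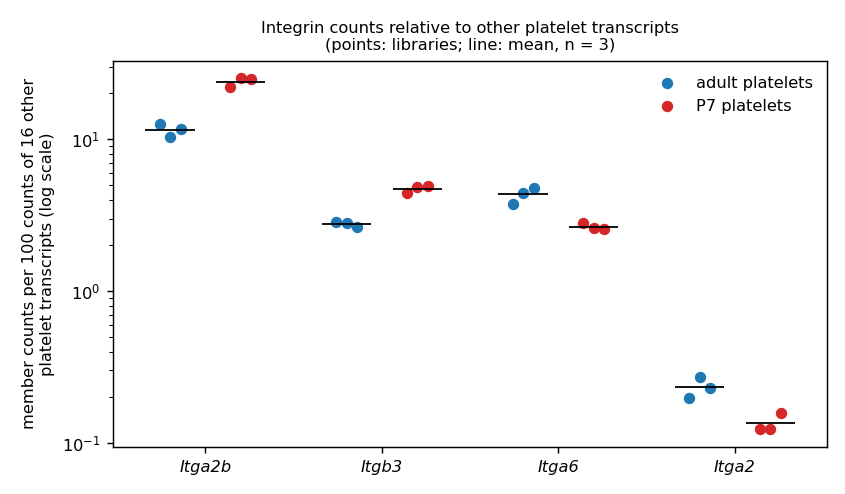
Counts of each integrin per 100 counts of 16 other platelet transcripts (y axis, log scale) in the libraries with adult or P7 platelets; points are libraries and lines are means (n = 3). The P7 points lie above the adult points for Itga2b and Itgb3 and below them for Itga6 and Itga2.

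Among the single transcripts of that list, the log2 difference between P7 and adult platelets had a median of 0.98, against -0.02 over all genes tested. Itga2b (1.37) lay near Myl9, a myosin light chain gene (1.38), and Treml1, a receptor stored in platelet granules (1.55). Itgb3 (1.12) lay near Gp1ba (1.11), the gene of the von Willebrand factor receptor chain GPIb alpha. Itga6 and Itga2 lay next to Gng11 (-0.31 ± 0.20, adjusted p = 0.267), a G protein subunit gene that was not called either. Only Ppbp of the 16 was lower than they were.

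**Figure D4:**
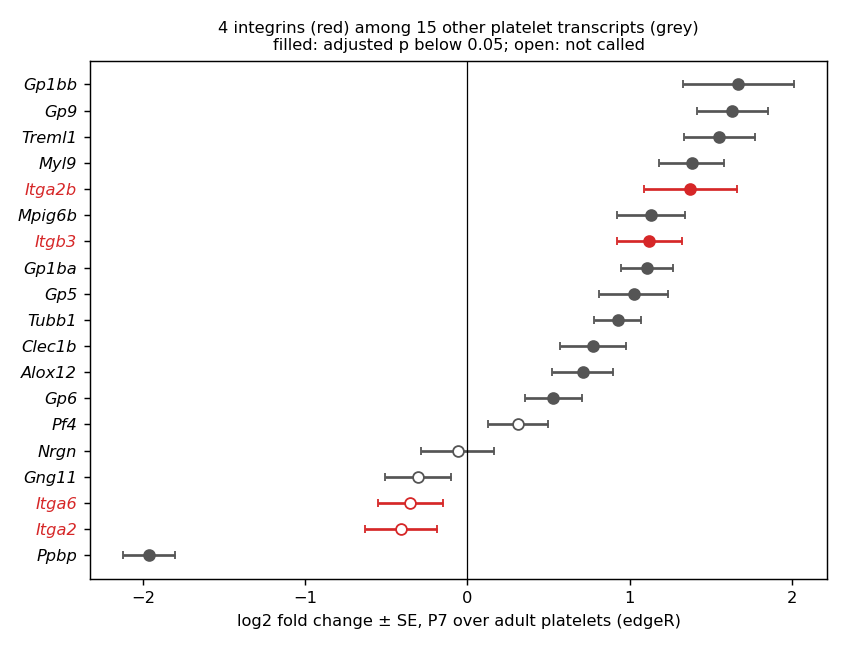
log2 fold change ± SE of P7 over adult platelets (x axis, edgeR) for the 4 integrins (red) and 15 of the 16 other platelet transcripts (grey), ordered by value; filled points have an adjusted p below 0.05. Itga2b and Itgb3 sit among the higher transcripts, and Itga6 and Itga2 sit below 0 between Gng11 and Ppbp.

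Of the chains that pair with these integrins, Itgb1 and Itgav were abundant in monocytes and changed less against control than the members. Itgb4 was scarce and rose. Itgb1, the partner of alpha 2 and alpha 6, stood at 570 ± 36.5 CPM in controls and 546 ± 45.7 with adult platelets (log2 -0.06 ± 0.10, adjusted p = 0.677), and rose to 832 ± 99.1 with P7 platelets (log2 0.54 ± 0.10, adjusted p = 0.00105). Itgav, the alpha V partner of beta 3, went from 146 ± 19.0 to 154 ± 20.8 CPM with adult platelets (adjusted p = 0.665) and rose to 194 ± 13.5 with P7 platelets (log2 0.41 ± 0.12, adjusted p = 0.0134). Itga5, the alpha chain of the fibronectin receptor, rose in both, from 302 ± 17.5 to 577 ± 63.0 and 860.3 ± 37.2 CPM. Itgb4, the other partner of alpha 6, had 3 to 4 counts per control library and rose to 0.560 ± 0.214 CPM with adult (log2 2.53 ± 0.40) and 1.43 ± 0.308 with P7 platelets (log2 3.88 ± 0.38). All 4 of these chains were called higher with P7 than with adult platelets, as were 19.7% of all genes. In that comparison Itgb1 differed by log2 0.61 ± 0.10, more in size than Itga2 (-0.41) and Itga6 (-0.35), which were not called. Itgav was near the threshold (edgeR adjusted p = 0.0482).

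The 26 integrin chain symbols in the files, a family list added after the values were known, place the members among their kin. Of the 19 tested chains other than the 4 members, 4 rose and 2 fell with adult platelets, and 7 rose and 4 fell with P7 platelets. Between P7 and adult platelets 7 of these 19 were higher and 3 lower. The members' 4 of 4 higher with either kind of platelets is given beside these counts as a description. Of all genes 14.3% rose and 12.0% fell with adult platelets, and 29.9% rose and 29.3% fell with P7 platelets. Between P7 and adult platelets 19.7% were higher and 19.8% lower. Counts of the gene lists below are to be read beside these shares. Itgb8 had a larger rise with P7 platelets than 3 of the members, from 1.39 to 15.2 CPM (log2 3.45), but not with adult platelets (log2 -0.12, adjusted p = 0.884), and P7 exceeded adult platelets (adjusted p = 0.000513). It was picked out after its values were seen.

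Integrins bind firmly only after talin and kindlin attach to the beta chain, steps steered by the small GTPase RAP1 and its activators and brakes. Of 14 tested genes of integrin activation, 3 rose and none fell with adult platelets, 6 rose and 3 fell with P7 platelets, and 4 were higher and 2 lower with P7 than with adult platelets. Of all genes 26.4%, 59.2% and 39.6% were called in these comparisons. The medians of the list, 0.01, 0.12 and 0.07 on the log2 scale, were near those of all genes (-0.00, -0.01 and -0.02). Rap1b, the main platelet RAP1 gene, rose by 0.32 ± 0.06 with adult and 0.80 ± 0.06 with P7 platelets, and Fermt3, the kindlin of blood cells, by 0.30 ± 0.06 and 0.54 ± 0.06. Fyb, an adaptor gene, rose with P7 platelets (1.20 ± 0.14). Rasa3, which encodes a brake on RAP1, fell from 497 to 199 CPM with P7 platelets (log2 -1.32 ± 0.11, adjusted p = 1.11e-05) and stood at 398 CPM with adult platelets (adjusted p = 0.0538). Rasgrp2, which encodes an activator of RAP1 and was named after its values were seen, was lower with P7 platelets as well. Its log2 difference was -0.33 ± 0.09 against control (adjusted p = 0.0132) and -0.37 ± 0.09 against adult platelets (adjusted p = 0.0122). Tln1, the talin gene, named after its values were seen, was near 1340 CPM in controls and with adult platelets and 1374 with P7 platelets (adjusted p = 0.978 and 0.605).

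Genes that act at the adhesion site or carry the signal inward moved both ways. With adult platelets 8 of 20 tested rose and 3 fell, where 26.4% of all genes were called. With P7 platelets 12 rose and 5 fell, where 59.2% of all genes were called. P7 exceeded adult platelets for 7 and lay below for 2, where 39.6% of all genes were called. Parvb, encoding beta-parvin of the integrin-linked kinase complex, rose by 1.49 ± 0.12 and 1.66 ± 0.12, and Vasp, encoding an actin regulator, by 0.76 ± 0.08 and 1.38 ± 0.08. Zyx, the zyxin gene, rose by 0.40 ± 0.07 and 0.64 ± 0.07. Syk, a kinase gene of integrin signalling, fell by 0.23 ± 0.05 with adult and 0.28 ± 0.05 with P7 platelets, and Csk, another kinase gene of this list, fell by 0.22 ± 0.05 and 0.27 ± 0.05. Vcl, the vinculin gene, was 0.54 ± 0.06 higher and Lims1, the gene of the adaptor PINCH1, 0.69 ± 0.10 higher with P7 than with adult platelets.

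Of 10 membrane proteins known to sit beside integrins, 6 rose with adult platelets and none fell, and 6 rose and 1 fell with P7 platelets (26.4% and 59.2% of all genes called). Medians were 0.56 and 0.66. Esam, an adhesion molecule gene of platelets and endothelium, had 2 to 3 counts per control library and stood at 5.36 ± 1.57 CPM with adult and 7.61 ± 1.06 with P7 platelets. Tspan9, a tetraspanin gene, rose from 0.434 ± 0.079 to 7.0 ± 2.0 and 9.94 ± 0.92 CPM, and Cd9, another tetraspanin gene, from 211 ± 20.0 to 461 ± 94.7 and 402 ± 40.3 CPM. F11r, which encodes junctional adhesion molecule A, rose with adult platelets from 12.6 ± 0.43 to 37.2 ± 8.63 CPM, stood at 16.5 CPM with P7 platelets (adjusted p = 0.0999), and was 1.17 ± 0.18 lower on the log2 scale with P7 than with adult platelets (adjusted p = 0.0011). Between P7 and adult platelets 2 of the 10 were higher and 2 lower, where 39.6% of all genes were called.

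Among 16 ligand genes 10 could be tested, and 1 rose with adult platelets. This was Vwf, encoding von Willebrand factor, at 1.32 ± 0.08 CPM in controls, 45.2 ± 14.4 with adult and 101 ± 0.38 with P7 platelets. With P7 platelets 3 rose and 2 fell (59.2% of all genes called, and 26.4% with adult platelets). Spp1, which encodes osteopontin, a ligand of alpha V beta 3, rose from 397 ± 19.7 to 987 ± 211 CPM, and the laminin chain gene Lamc1 from 26.2 ± 5.26 to 43.7 ± 3.15. Thbs1, encoding thrombospondin 1, fell from 5371 ± 1280 to 1894 ± 87.3 CPM. The fibrinogen genes Fga, Fgb and Fgg and the vitronectin gene Vtn had no count in any library. Between P7 and adult platelets 3 of the 10 were higher and 2 lower, where 39.6% of all genes were called.

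Of 10 transcription factor genes of the megakaryocyte lineage, 2 rose and 1 fell with adult platelets and 3 rose and 2 fell with P7 platelets (26.4% and 59.2% of all genes called). Gata1, which drives Itga2b in megakaryocytes, rose from 0.669 ± 0.222 to 2.26 ± 0.961 and 4.88 ± 0.312 CPM, and Gfi1b, which encodes a repressor of the same lineage, from 1.93 ± 0.215 to 4.10 ± 0.793 and 16.3 ± 2.22 CPM. Fli1, also used by monocytes, fell with P7 platelets (-0.74 ± 0.07). Gata1 and Gfi1b also serve red cell precursors. The red cell transcripts given above rose in the same order of groups, and their part in these values was not tested. Between P7 and adult platelets 4 of the 10 were higher and 2 lower, where 39.6% of all genes were called.

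Markers of other cells that can carry these integrins were also summed in every library. Basophil and mast cell transcripts summed to 362, 230 and 181 CPM in control replicates 1 to 3. That was the order of Itga2b, Itga2 and Itga6 in those libraries and not that of Itgb3, a description only, since 3 libraries have few possible orders. With adult platelets the sums were 359, 179 and 348 CPM. There replicate 2 was also the lowest for every member, but replicate 3 and not replicate 1 was the highest. With P7 platelets the sums were 366, 199 and 232 CPM, the order of Itga2b, Itgb3 and Itga6 but not of Itga2. These sums overlapped between the groups, and no marker of the 8 was at 0 in any group. Of these 8 none was called with adult platelets and 2, Kit and Hdc, with P7 platelets (26.4% and 59.2% of all genes called). In the list Prss34 and Mcpt8, protease genes of basophils, had the highest levels, at 122 ± 53.1 and 53.4 ± 25.7 CPM in controls. The part of such cells in the control values was not tested.

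NK cell transcripts, relevant to Itga2, summed to 19.1 to 27.9 CPM in controls, 16.5 to 21.4 with adult and 13.8 to 18.6 with P7 platelets. Nearly all of this was Klrd1, and Ncr1, a defining NK cell gene, had no count in controls or with adult platelets and at most 1 per library with P7 platelets. Endothelial transcripts, whose cells can carry alpha 6, summed to 0.814 to 1.20, 1.28 to 2.91 and 4.55 to 6.29 CPM in the same order of groups. Most of the rise with P7 platelets was 1 gene, Kdr (0.196, 0.603 and 3.52 CPM). Sox17, Emcn and Ptprb were at 0 in controls and with adult platelets, and had at most 2 counts per library with P7 platelets. T cell transcripts summed to 2.30 to 3.73, 5.29 to 10.1 and 13.2 to 14.7 CPM. Most of that rise was Lat, an adaptor gene that platelets use as well (0.977, 4.51 and 11.1 CPM), while the T cell receptor genes Cd3e, Cd3d, Cd3g and Trac had group means of 0.0293 to 0.197 CPM. Neutrophil transcripts (171 to 352 CPM over all libraries) overlapped between groups, as B and plasma cell transcripts did. Their part in the integrin values was not tested.

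The patterns most like each member were sought among named genes with an average log2 CPM of at least 2, by Pearson's r of log2(CPM + 0.5) over the 9 libraries. These libraries share their groups and depth, so r mostly ranks how closely the course over the 3 groups matches. It takes no account of the level or of the size of a change, and it is given as a description. For Itga2b, of 9292 genes, the closest were Tmem40 (r = 0.999), Slc6a4, the serotonin transporter gene (0.998), Treml1 (0.995) and Samd14 (0.995). For Itgb3 they were Tpm2 (0.990), Cnbp (0.990), Pttg1ip (0.987) and P2rx1, an ATP receptor gene (0.984). Cnbp rose far less than Itgb3, from 206 CPM in controls to 236 with adult and 261 with P7 platelets. For Itga6 they were Arhgap10 (0.993), Cd9 (0.992), Epha2 (0.991) and Anxa2 (0.988). Anxa2 too moved less than the member, at 501, 817 and 757 CPM in controls, with adult and with P7 platelets. For Itga2 they were Arhgap10 (0.986), Itga6 itself (0.982), Epha2 (0.978) and Fam110a (0.978).

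Slc6a4 stood at 1.08, 14.8 and 31.8 CPM in controls, with adult and with P7 platelets, the stepwise rise seen for Itga2b. Arhgap10 stood at 6.76, 37.7 and 28.1 CPM, highest with adult platelets as Itga6 and Itga2 were. Among the members, r was 0.938 for Itga2b with Itgb3, 0.982 for Itga2 with Itga6 and 0.738 for Itgb3 with Itga2, the lowest of the 6 pairs.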

How the data were processed

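The authors deposited unnormalised read counts per gene symbol, made from stranded oligo-dT mRNA libraries read as 75 nt single ends, per the labels' protocols. Tools listed, without roles, per the submitters' processing notes, are STAR 2.7.6a, Salmon 1.3.0, fastp 0.20.1, and featureCounts beside Subread 2.0.1. Build, annotation and strandedness of counting: not given in the sources used here. Library totals were 29687341 to 37065564 counts. Of the 55367 symbols, 53292 matched GENCODE M21. Genes annotated inside Itga2b and Itga6 that the files list held at most 1 count per library.

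edgeR 4.0.16 (R 4.3.3) was fitted across all genes to the 9 libraries with 1 mean per group, TMM factors (0.882 to 1.10) and filterByExpr (minimum count 10), with 6 residual degrees of freedom. Deviations from group means of same-numbered control and P7 libraries correlated at 0.60, 0.27 and 0.39 for numbers 1 to 3. Control replicate 2 correlated more with P7 replicate 3 (0.34) than with its own number, and the labels give no pairing. Ratios of counts were compared by exact permutation tests. The method was tested on simulated data. Members and lists were chosen with earlier results of these data known. Up to 5 genes per pathway list and comparison are named by smallest p, all members and partner chains, up to 3 markers per cell type by level, and 4 genes per member by likeness. Of 164 list genes 163 are in the files. Alternatives were other scalings (DESeq2 size factors, upper quartile), other filters, DESeq2 1.42.0, limma-voom 3.58.1, only the compared groups, a replicate block, removal of platelet, erythroid and mitochondrial transcripts, Igkc as a covariate, other pseudocounts and denominators, and leaving out each library. No library was left out otherwise. The single values of 1 list gene are not reported here, though it counts in its list.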

Additional observations from a re-analysis of the deposited data

How the results depend on the processing

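The 12 fold changes of the members kept their direction and their side of the threshold in all 120 results from 10 alternatives of scaling, filter, test, design and covariate, and in 107 of 108 results obtained by omitting 1 library at a time. The exception was Itga6 between P7 and adult platelets, which ranged from -0.54 (called) without adult platelet replicate 2 to -0.089 in these fits; the cause was not tested. The genes called with adult platelets against control, 3617, ranged from 2031 without control replicate 2 to 3774 when 1 library was left out, and from 2999 with only the groups compared to 4393 with the Igkc covariate in the other alternatives. Without Ppbp and Pf4 in the denominator, the log2 differences of the shares of other platelet transcripts between P7 and adult platelets moved by more than 1 SD, from 1.06 to 0.81 for Itga2b, from 0.78 to 0.53 for Itgb3, from -0.78 to -1.03 for Itga2 and from -0.70 to -0.94 for Itga6. The denominator holds Ppbp, which was lower with P7 platelets. Deviations from group means of same-numbered libraries correlated at 0.50 to 0.60 for number 1, at 0.27 to 0.39 for number 2 and at -0.10 to 0.39 for number 3. Number 3 fell short in both comparisons with adult platelets, and not every library correlated best with its own number. With the replicate block the genes called were 4228, 8565 and 5965 (3617, 8111 and 5424 without it), Itga2b differed between P7 and adult platelets by 1.43 (adjusted p = 0.00197), and no member's call changed. Depth limits Itga2 most, with 22 counts in 1 control library.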
